A study of Homo sapiens with 6 samples.

Results

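The enzymes described here build purine and pyrimidine nucleotides from small precursors. They were the 10 genes PPAT, GART, PFAS, PAICS, ADSL, ATIC and IMPDH2 of the purine branch and CAD, UMPS and CTPS1 of the pyrimidine branch. The set was chosen by name from the pathway, with earlier results of these data known. Each gene had 1 of the 19361 rows of the deposited table. The cells were UMUC-14, an established line that the labels call a human bladder cancer cell line. A group of 3 arrays came from cells given the lipofectamine reagent alone. The other group of 3 came from cells in which FGFR3, a growth factor receptor with tyrosine kinase activity, was targeted by siRNA, a different one on each array (siFGFR3#35, siFGFR3#36 and siFGFR3#3). Both groups were the same line and medium, and RNA was taken after 40 h. The labels describe no non-targeting siRNA, so receiving any siRNA and losing FGFR3 cannot be told apart. Whether separate cultures lay behind the arrays of a group is not stated either, and the p-values measure only the spread between these samples. Among controls that spread may be technical, and among siFGFR3 arrays it also holds any differences between siRNAs.

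In de novo purine synthesis a purine ring is assembled on phosphoribosyl pyrophosphate (PRPP), the activated ribose, until inosine monophosphate (IMP) is made, which is then turned into AMP or GMP. In de novo pyrimidine synthesis the ring is made first, from glutamine, bicarbonate and aspartate, and is then joined to PRPP to give UMP, from which CTP follows. Dividing cells draw on both routes for RNA and DNA, and the transcription factor MYC, which binds E-box sequences, is known to act on many of these genes.

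Promoter sequences were read from RefSeq windows of 300 bases (250 before and 50 from the annotated start onward, GRCh38.p14), which held 13 windows for 8 of the 10 genes; ADSL and IMPDH2 were not matched. They are shown for PPAT and PAICS because these genes are divergent neighbours whose windows overlap, for ATIC because it holds the same motif more than once, and for PFAS because its level fell the most. Letters in capitals mark the E-box CACGTG, or in PFAS the GC box GGGCGG. PPAT lay at chr4:56435566-56435865 on the minus strand and PAICS (1 of its 3 windows) at chr4:56435502-56435801 on the plus strand, ATIC at chr2:215311809-215312108 and PFAS at chr17:8249039-8249338, both on the plus strand. Each is printed 5′ to 3′ on its own strand.
PPAT: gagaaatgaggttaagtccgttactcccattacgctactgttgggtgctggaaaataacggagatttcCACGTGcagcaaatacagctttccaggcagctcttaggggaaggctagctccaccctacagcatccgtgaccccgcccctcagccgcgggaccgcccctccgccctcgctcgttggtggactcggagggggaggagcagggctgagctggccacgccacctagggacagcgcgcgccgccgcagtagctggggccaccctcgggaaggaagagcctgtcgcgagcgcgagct
PAICS: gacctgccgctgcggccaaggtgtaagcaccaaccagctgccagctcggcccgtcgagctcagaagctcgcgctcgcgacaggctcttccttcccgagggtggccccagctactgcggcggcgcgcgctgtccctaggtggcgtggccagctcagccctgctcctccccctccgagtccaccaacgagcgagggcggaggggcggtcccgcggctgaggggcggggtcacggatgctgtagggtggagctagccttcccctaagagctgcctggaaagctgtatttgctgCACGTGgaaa
ATIC: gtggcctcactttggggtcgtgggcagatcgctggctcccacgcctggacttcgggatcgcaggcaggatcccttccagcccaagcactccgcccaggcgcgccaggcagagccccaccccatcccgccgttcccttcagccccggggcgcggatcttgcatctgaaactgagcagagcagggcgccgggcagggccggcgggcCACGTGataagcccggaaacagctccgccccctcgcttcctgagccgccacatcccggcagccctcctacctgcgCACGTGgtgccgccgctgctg
PFAS: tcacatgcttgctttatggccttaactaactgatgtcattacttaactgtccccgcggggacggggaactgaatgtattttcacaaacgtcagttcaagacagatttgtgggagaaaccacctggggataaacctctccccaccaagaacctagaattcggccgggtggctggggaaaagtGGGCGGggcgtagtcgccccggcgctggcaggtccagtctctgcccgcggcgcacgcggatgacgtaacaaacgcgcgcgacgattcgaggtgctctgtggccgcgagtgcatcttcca

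The PPAT and PAICS windows shared 236 bases, with start sites 137 bases apart, and a single CACGTG lay in both. It was at position −182 relative to the PPAT start site and at 40 relative to that of PAICS. ATIC held the motif at −46 and at 29. CACGTG, which reads the same on both strands, was in 3 of the 8 matched genes (PPAT, PAICS and ATIC) and in 8.77% of all 27305 genes with a window, and PPAT and PAICS count the same site. The GC box, searched on both strands, was in 7 of the 8 and in 48.3% of all genes. The ETS motif CCGGAAG was in GART alone (12.2% of all genes), the NRF1 core GCATGCGC in CTPS1 alone (3.68%) and TATAAA in GART alone (14.0%). None of these motifs holds another within its letters, and a match describes the letters in the window only.

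The knockdown target was checked first. FGFR3 stood at log2 levels of 8.70, 8.75 and 8.74 on the lipofectamine arrays, and at 7.47 with siFGFR3#35, 7.14 with siFGFR3#36 and 8.45 with siFGFR3#3. Every siFGFR3 array was below every control, but with siFGFR3#3 the signal was still 82.2% of the control mean, against 41.7% and 33.3% with the other siRNAs. The log2 difference between the groups was −1.04 (SE 0.30, adjusted p = 0.0271 in limma), and FGFR3 did not pass when any single control or siFGFR3#35 was left out (adjusted p = 0.0703 to 0.0817).

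All 10 enzymes were lower in siFGFR3 cells, and all passed limma's test across the 13552 rows kept after the dimmest 30% were set aside (adjusted p under 0.05, two-sided). Over all rows tested 24.6% passed as lower and 45.1% in either direction, so passing alone was common on these arrays. Since the enzymes were chosen with earlier results of these data known, their count is not independent evidence. The calls over all rows were 3329 lower and 2789 higher, or 4285 and 2312 with arrays centred on their medians, and leaving out any 1 control left 1964 to 1988 lower and 1672 to 1771 higher. The enzymes' log2 differences ran from −1.10 to −0.36, with a median of −0.64 against −0.04 over all rows. Their signals were 46.5% to 77.7% of the control level, and 7 of the 10 fell by more than 0.5 on the log2 scale. In each of the 10 genes every siFGFR3 array lay below every control array, which held for 33.9% of all rows tested. The levels come from 100 ng of RNA per sample and are relative to the other genes on each array, so they do not count cells. Fewer cells expressing a gene and less of its RNA per cell cannot be told apart in such bulk samples.

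**Figure D1:**
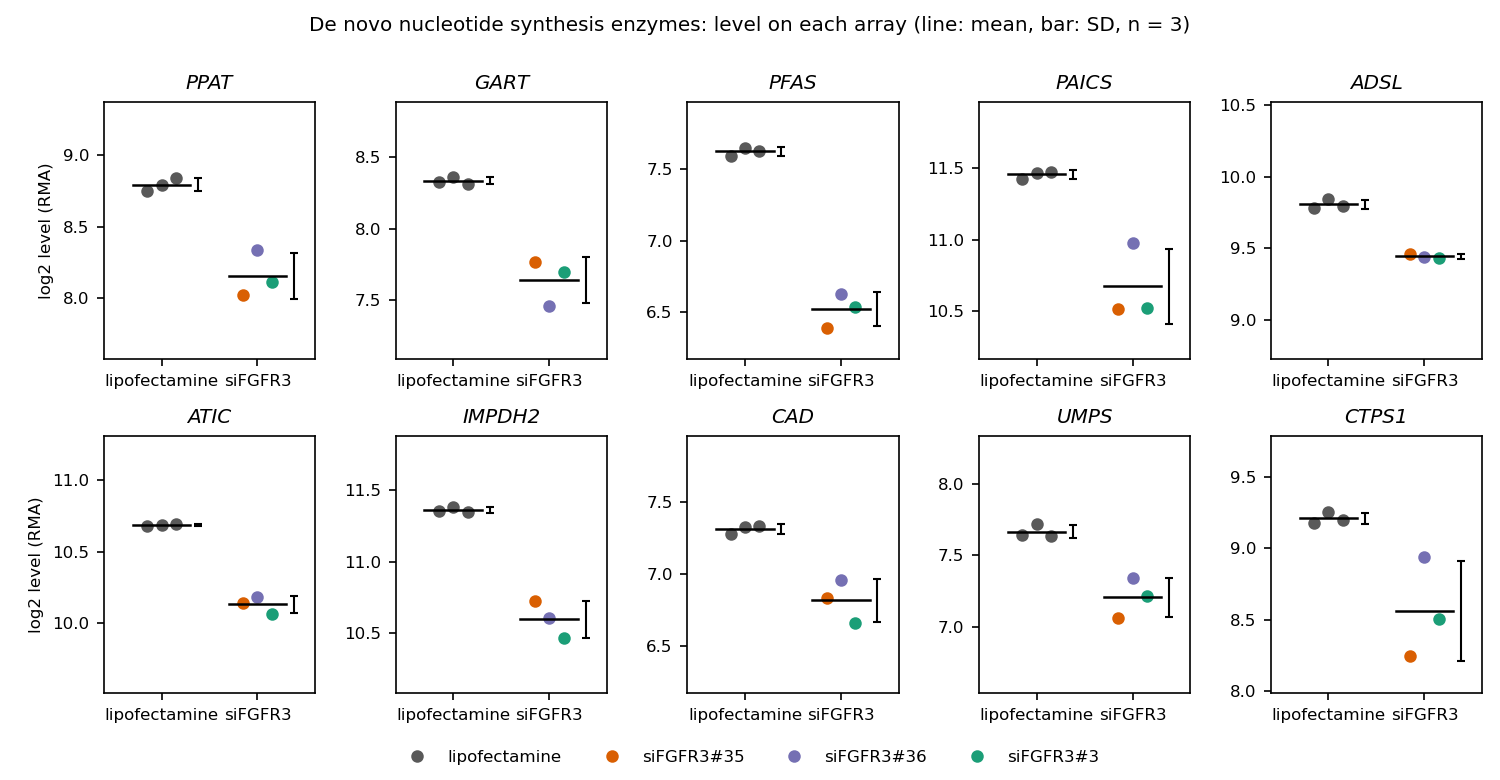
Log2 expression level (RMA, vertical axis) of the 10 enzymes on each of the 6 arrays, with lipofectamine arrays on the left of each panel and the siFGFR3 arrays, coloured by siRNA, on the right; lines are group means, bars are SD, n = 3, and all panels span the same number of log2 units around different levels. In every panel the siFGFR3 points lie below all control points, and the spread between siRNAs is widest for CTPS1 (0.69 log2 units between the highest and the lowest) and narrowest for ADSL (0.03).

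PPAT, the amidotransferase of the first committed purine step, was at log2 levels of 8.75, 8.80 and 8.84 on the control arrays. It was at 8.02 with siFGFR3#35, 8.33 with siFGFR3#36 and 8.11 with siFGFR3#3, so the control arrays lay close together and all siFGFR3 arrays were well below them. It fell by 0.64 on the log2 scale (SE 0.09, adjusted p = 0.00211). GART, a protein with several catalytic domains that acts directly after PPAT and again later in the ring's assembly, was at 8.33, 8.36 and 8.32 in controls. Its levels were 7.77, 7.46 and 7.70 with siFGFR3#35, siFGFR3#36 and siFGFR3#3, where siFGFR3#36 was the lowest array. GART fell by 0.69 (SE 0.09, adjusted p = 0.00158).

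PFAS, which adds a glutamine nitrogen to the growing ring, showed the deepest fall of the 10. Its log2 levels were 7.59, 7.65 and 7.63 in controls and 6.39, 6.63 and 6.54 with siFGFR3#35, siFGFR3#36 and siFGFR3#3. It fell by 1.10 (SE 0.08, adjusted p = 0.000337), to 46.5% of the control signal, a 2.15-fold decrease. Among all rows tested 0.568% had a more negative difference than PFAS, against 14.9% for ADSL.

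PAICS, a carboxylase and ligase in one protein, stood at log2 levels of 11.42, 11.47 and 11.48 in controls. With siFGFR3#35 and siFGFR3#3 it was at 10.52 and 10.53, and with siFGFR3#36 at 10.98, so that the last array lay about midway between the controls and the others. PAICS fell by 0.78 (SE 0.12, adjusted p = 0.00302). PAICS and PPAT, which share the promoter window above, were both lowest with siFGFR3#35 and highest, among siFGFR3 arrays, with siFGFR3#36, an order also seen in PFAS, UMPS and CTPS1. The annotated spans of the pair overlap by 25109 bases on opposite strands, and which probes lie there was not examined.

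ADSL, the lyase used both on the way to IMP and again on the way to AMP, was at log2 levels of 9.78, 9.84 and 9.80 in controls and 9.46, 9.44 and 9.43 with siFGFR3#35, siFGFR3#36 and siFGFR3#3. Its fall of 0.36 (SE 0.05, adjusted p = 0.00195) was the smallest of the 10 and the most even across siRNAs. ATIC, which closes the purine ring to give IMP, was at 10.68, 10.69 and 10.70 in controls. The siFGFR3 arrays read 10.15, 10.19 and 10.07 in the same order of siRNAs, again a tight set, and ATIC fell by 0.55 (SE 0.05, adjusted p = 0.000616). IMPDH2, which commits IMP to GMP, was at 11.36, 11.38 and 11.35 in controls and at 10.72, 10.61 and 10.47 with siFGFR3#35, siFGFR3#36 and siFGFR3#3. It fell by 0.76 (SE 0.07, adjusted p = 0.000616), with siFGFR3#3 the lowest array.

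The pyrimidine enzymes fell as well. CAD, a multifunctional protein that starts the pathway from glutamine and is activated by ERK and S6 kinase phosphorylation, was at log2 levels of 7.28, 7.33 and 7.34 in controls and 6.83, 6.96 and 6.66 with siFGFR3#35, siFGFR3#36 and siFGFR3#3. It fell by 0.50 (SE 0.09, adjusted p = 0.00472). UMPS, which joins orotate to PRPP and decarboxylates it to UMP, was at 7.64, 7.72 and 7.64 in controls and 7.07, 7.34 and 7.21 in the siFGFR3 arrays in that order. UMPS fell by 0.46 (SE 0.08, adjusted p = 0.00532), and no array crossed between the groups in either gene.

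CTPS1, the CTP synthase that aminates UTP, varied most between siRNAs. It was at log2 levels of 9.17, 9.25 and 9.20 in controls, and at 8.24 with siFGFR3#35, 8.94 with siFGFR3#36 and 8.50 with siFGFR3#3. It fell by 0.65 (SE 0.16, adjusted p = 0.0164). The array with siFGFR3#36 stood much nearer to the controls than the others, and CTPS1 was the 1 enzyme of the 10 that did not pass when any single control array was left out (adjusted p = 0.0515 to 0.0592).

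Other enzymes of the same routes were listed beside them. Of 11 further de novo genes listed, 8 were tested, of which 3 were lower, 2 higher and 3 did not pass, with a median log2 difference of −0.03. Over all rows the median was −0.04, with 24.6% lower and 45.1% called in either direction, and with 8 genes these counts are not read as a result about the list. DHODH, the mitochondrial enzyme between CAD and UMPS, was at log2 levels of 6.02, 5.94 and 5.99 in controls and 5.12, 5.51 and 5.27 with siFGFR3#35, siFGFR3#36 and siFGFR3#3, and fell by 0.69 (SE 0.11, adjusted p = 0.00294). IMPDH1, the paralog of IMPDH2, fell by 0.71 (SE 0.10, adjusted p = 0.00194). PRPS2, a PRPP synthetase, fell by 0.26 (SE 0.05, adjusted p = 0.00959).

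The members of that list that were higher were CTPS2, the paralog of CTPS1, and ADSS1, an adenylosuccinate synthetase on the way to AMP. CTPS2 was at log2 levels of 6.83, 6.76 and 6.87 in controls and 7.10, 6.97 and 7.23 with siFGFR3#35, siFGFR3#36 and siFGFR3#3, a rise of 0.28 (SE 0.08, adjusted p = 0.0334). ADSS1 rose by 0.24 (SE 0.07, adjusted p = 0.0368). Both rises missed the threshold with arrays centred on their medians (adjusted p = 0.0604 for CTPS2 and 0.091 for ADSS1) and in 5 of the 6 fits that left out 1 array. With array weights in limma ADSS1 missed it too (adjusted p = 0.0736), while CTPS2 passed (adjusted p = 0.0082). The PRPP synthetase PRPS1 differed by 0.06 (95% interval −0.13 to 0.24), and the synthetase-associated proteins PRPSAP1 by 0.01 (−0.22 to 0.23) and PRPSAP2 by −0.07 (−0.23 to 0.09), none of which passed. PRPS1L1 was among the dim rows set aside, and GMPS and ADSS2 were not analysed here.

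The paralog pairs were compared within arrays, since a pass in 1 gene and not in another is no test of a difference. The log2 difference CTPS1 minus CTPS2 was lower in siFGFR3 than in lipofectamine arrays by −0.92 (siFGFR3 minus lipofectamine), with SDs of 0.44 and 0.09, and every siFGFR3 array was below every control. The exact two-sided permutation test gave p = 0.1, the smallest that 3 arrays against 3 allow. For IMPDH2 minus IMPDH1 the same quantity was −0.05, with SDs of 0.06 and 0.02, the groups overlapped, and the exact permutation p was 0.2; without siFGFR3#35 it was −0.02. Neither pair could have reached 0.05 in this design, so neither test decides whether the paralogs changed unequally. CTPS1 was below its control arrays and CTPS2 above its own on all 3 siFGFR3 arrays.

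**Figure D2:**
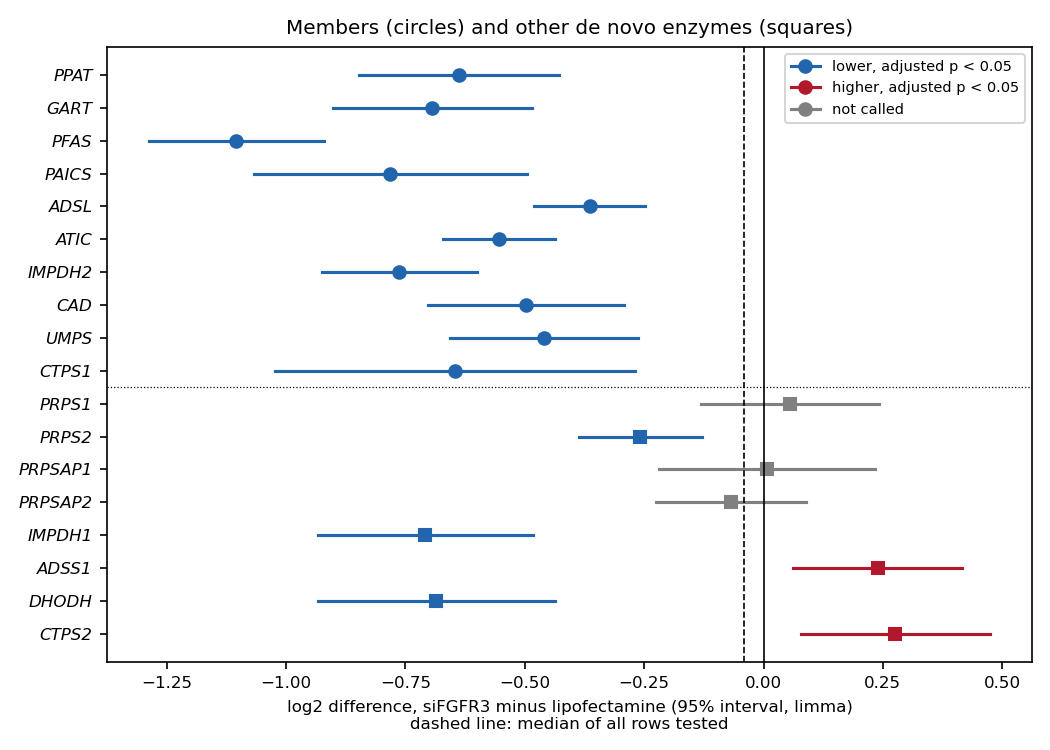
Log2 difference, siFGFR3 minus lipofectamine (horizontal axis), with its 95% interval from limma, for the 10 enzymes (circles) and the 8 other tested de novo genes (squares); blue passed as lower, red as higher, grey did not pass, and the dashed line is the median of all rows tested (−0.04). All circles lie left of the dashed line, from PFAS at −1.10 to ADSL at −0.36, while the squares lie between −0.71 and 0.28.

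Each siRNA was then set against the 3 controls in a model with 4 levels. Each siRNA has 1 array there and its variation is taken to equal that among controls, so these p-values compare arrays, and the comparisons share their controls. All 10 enzymes passed as lower with siFGFR3#35, with siFGFR3#36 and with siFGFR3#3, where 30.3%, 26.8% and 30.3% of all rows did so. The enzymes' median log2 differences, in the order siFGFR3#35, siFGFR3#36 and siFGFR3#3, were −0.62, −0.47 and −0.67, beside −0.03, −0.05 and −0.03 over all rows. Median signals were thus 65.1%, 72.3% and 62.9% of control. PFAS fell the most with every siRNA, by 1.23, 0.99 and 1.09 in that order. The smallest falls were in ADSL with siFGFR3#35 and siFGFR3#3 (0.35 and 0.37) and in CTPS1 with siFGFR3#36 (0.27).

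The order of the siRNAs for these enzymes was not that for FGFR3 itself. The array with the lowest FGFR3 signal, siFGFR3#36, had the smallest fall in 7 of the 10 enzymes, and the array with the highest, siFGFR3#3, had the smallest fall in 0 and the largest in 4 (ADSL, ATIC, IMPDH2 and CAD). The largest fall was with siFGFR3#35 in 5 (PPAT, PFAS, PAICS, UMPS and CTPS1) and with siFGFR3#36 in GART only. Over all rows siFGFR3#36 also had the fewest calls against the controls, 3630 lower and 3080 higher. With siFGFR3#35 they were 4100 and 4123, and with siFGFR3#3 4107 and 4056. How many of all rows share the enzymes' order was not counted, so the order is not read as particular to them. With 1 array for each siRNA no relation between FGFR3 level and enzyme level was tested. MYC, at 10.05, 10.11 and 9.95 in controls and 9.50, 9.62 and 9.60 with siFGFR3#35, siFGFR3#36 and siFGFR3#3, fell by 0.46 (SE 0.06, adjusted p = 0.00202), with all siFGFR3 arrays below all controls.

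**Figure D3:**
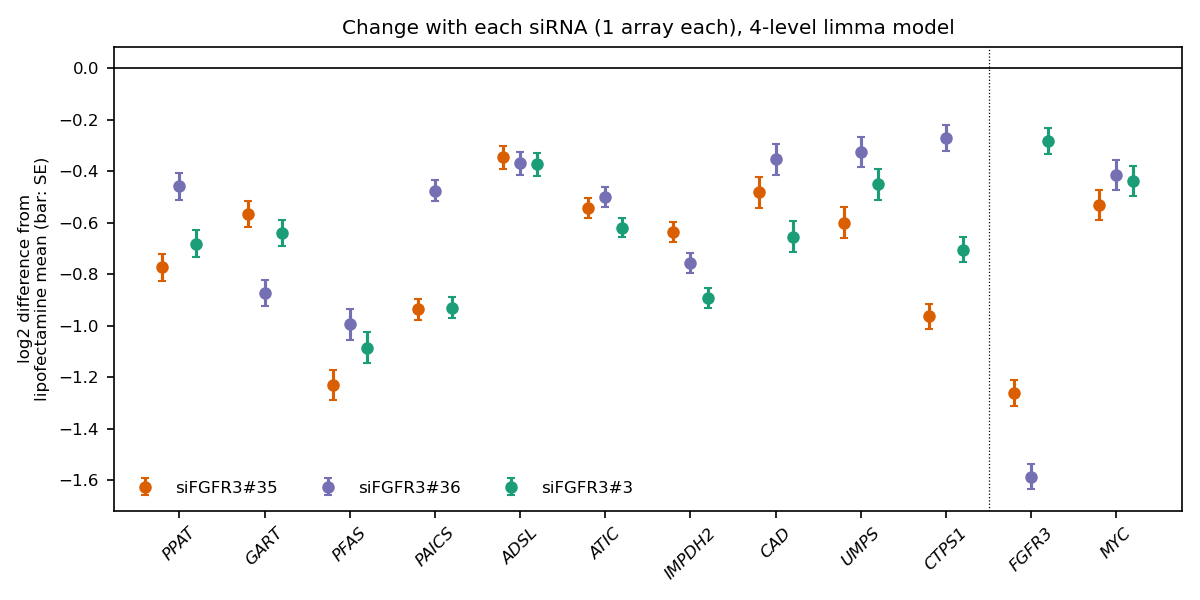
Log2 difference from the lipofectamine mean (vertical axis) of the 10 enzymes, FGFR3 and MYC for each siRNA, 1 array each, with SE bars from the 4-level limma model. All enzyme points are below 0; siFGFR3#36 is nearest to 0 for PPAT, PFAS, PAICS, ATIC, CAD, UMPS and CTPS1 but lowest for GART and FGFR3, and siFGFR3#3 is nearest to 0 for FGFR3.

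Each siRNA array was also tested against the mean of the other siRNA arrays; these 3 contrasts are not independent. Each sets single arrays against the spread of the controls alone, so the p-values do not measure how far repeat transfections with an siRNA would differ. With siFGFR3#36 6 of the 10 enzymes passed, where 32.2% of all rows did in either direction. CTPS1, PAICS and PPAT were higher than with the other siRNAs by 0.56, 0.46 and 0.27 (SE 0.05, 0.04 and 0.06; adjusted p = 5.26e-05, 5.85e-05 and 0.00498), CAD and UMPS by 0.21 and 0.20 (adjusted p = 0.0293 and 0.0357), and GART was lower, at −0.27 (adjusted p = 0.00433). The CTPS1, PAICS, PPAT and GART calls held in all 8 fits of this contrast, whereas CAD passed in 5 and UMPS in 4. DHODH, which is no member of the 10, was higher with siFGFR3#36, by 0.31 (adjusted p = 0.0222), and lower with siFGFR3#35, at −0.27 (adjusted p = 0.0484). It is the only one of the 8 other tested de novo genes given for these contrasts, and its other fits are not given. IMPDH1, also outside the 10, had another order, with levels of 8.67, 8.46 and 8.30 with siFGFR3#35, siFGFR3#36 and siFGFR3#3.

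With siFGFR3#35 6 enzymes passed as well, against 26.5% of all rows. CTPS1 was at −0.48 relative to the other siRNAs (adjusted p = 0.000187), PAICS at −0.23 (adjusted p = 0.00343), UMPS at −0.21 (adjusted p = 0.0339) and PPAT at −0.20 (adjusted p = 0.0234), while GART and IMPDH2 were higher by 0.19 each (adjusted p = 0.0277 and 0.00872). The CTPS1 call alone held in all 8 fits; without a variance trend it was the only one of the 6. With siFGFR3#3 3 enzymes passed, CAD at −0.24, PAICS at −0.22 and IMPDH2 at −0.20 (adjusted p = 0.0302, 0.00613 and 0.0095), against 18.4% of all rows, and 0 of them passed without a variance trend. ADSL, ATIC and PFAS passed in none of these 3 contrasts as fitted here, though PFAS passed as lower with siFGFR3#35 in 3 of 8 fits, and PFAS and ATIC as higher with siFGFR3#36 in 1 of 8 each; the ADSL differences were within −0.02 to 0.02 (95% intervals from −0.12 to 0.13).

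The wider supply of nucleotides was described with lists drawn from textbook pathways. Their counts stand against 24.6% of all rows lower and 45.1% called in either direction. Like the enzymes, these lists and those below were chosen with earlier results of these data known. Counts above those shares are therefore not independent evidence. In salvage, which recovers bases and nucleosides, 9 of 15 tested genes fell, 0 rose and 6 did not pass, with a median log2 difference of −0.44; TK2, the thymidine kinase of mitochondria, fell by 0.66 (SE 0.07), and UPP1, which splits uridine, fell by 0.60 (SE 0.07). In deoxynucleotide synthesis 6 of 7 fell, 0 rose and 1 did not pass (median −0.41), among them the thymidylate kinase DTYMK, which fell by 0.68 (SE 0.08), and TYMS, the enzyme that methylates dUMP, which fell by 0.76 (SE 0.09). All of these passed with adjusted p between 0.00093 and 0.00144 in limma.

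Of 10 nucleotide kinases 3 fell, 2 rose and 5 did not pass (median −0.10), near the shares over all rows (24.6% lower, 45.1% in either direction). The diphosphate kinase NME1 fell by 0.96 (SE 0.11, adjusted p = 0.00112), whereas its relative NME3 rose by 0.45 (SE 0.08, adjusted p = 0.0059). AK6, an adenylate kinase whose annotated span overlaps TAF9 and RAD17, fell by 0.60 (SE 0.09), and the guanylate kinase GUK1 rose by 0.17 (SE 0.05, adjusted p = 0.024). Of 14 breakdown enzymes 3 fell, 1 rose and 10 did not pass (median −0.04, as over all rows), and these counts are no higher than the shares over all rows; the AMP deaminase AMPD2 and the guanine deaminase GDA each fell by 0.30 (SE 0.06 and 0.07), and the pyrimidine nucleotidase NT5C3A rose by 0.52 (SE 0.16, adjusted p = 0.0367).

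Among genes that supply the building blocks, where the shares over all rows are again 24.6% lower and 45.1% in either direction, 10 of 13 folate and glycine genes fell, 1 was called higher and 2 did not pass (median −0.49). MTHFD1L, the mitochondrial formate producer, fell by 1.32 (SE 0.13, adjusted p = 0.000827) and the serine hydroxymethyltransferase SHMT2 fell by 0.68 (SE 0.07). The gene called higher was the folate receptor FOLR1, with means of 3.70 in controls and 4.15 in siFGFR3 arrays. Its control mean is below the level of 3.89 at which dim rows were set aside, so it was tested only through the group where it was high, and its call is not read as a rise. Of 8 genes handling glutamine and aspartate 4 fell, 2 rose and 2 did not pass (median −0.32). The glutamine carrier SLC38A1 fell by 0.56 (SE 0.06) and the mitochondrial aspartate aminotransferase GOT2 fell by 0.31 (SE 0.04), while the glutamine synthetase GLUL rose by 1.01 (SE 0.14, adjusted p = 0.00199) and the carrier SLC38A2 rose by 0.21 (SE 0.06, adjusted p = 0.0271).

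The pentose phosphate pathway, source of the ribose in PRPP, had 1 of 6 genes lower, 1 higher and 4 not passing (median −0.10), against 24.6% lower and 45.1% in either direction over all rows: the epimerase RPE fell by 0.39 (SE 0.07) and the lactonase PGLS rose by 0.57 (SE 0.07, adjusted p = 0.00145). Of 9 known regulators 3 fell, 0 rose and 6 did not pass (median −0.03), again near the shares over all rows; beside MYC, the bHLH factor MLX fell by 0.67 (SE 0.06, adjusted p = 0.000666). The 5 genes outside the set whose changes over the 3 siRNA arrays lay nearest to the enzymes' median (Euclidean distance 0.019 to 0.033 log2 units) were LYSET, EXOSC3, TOE1, POC1A and KIF2C, named as a description over 3 arrays.

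**Figure D4:**
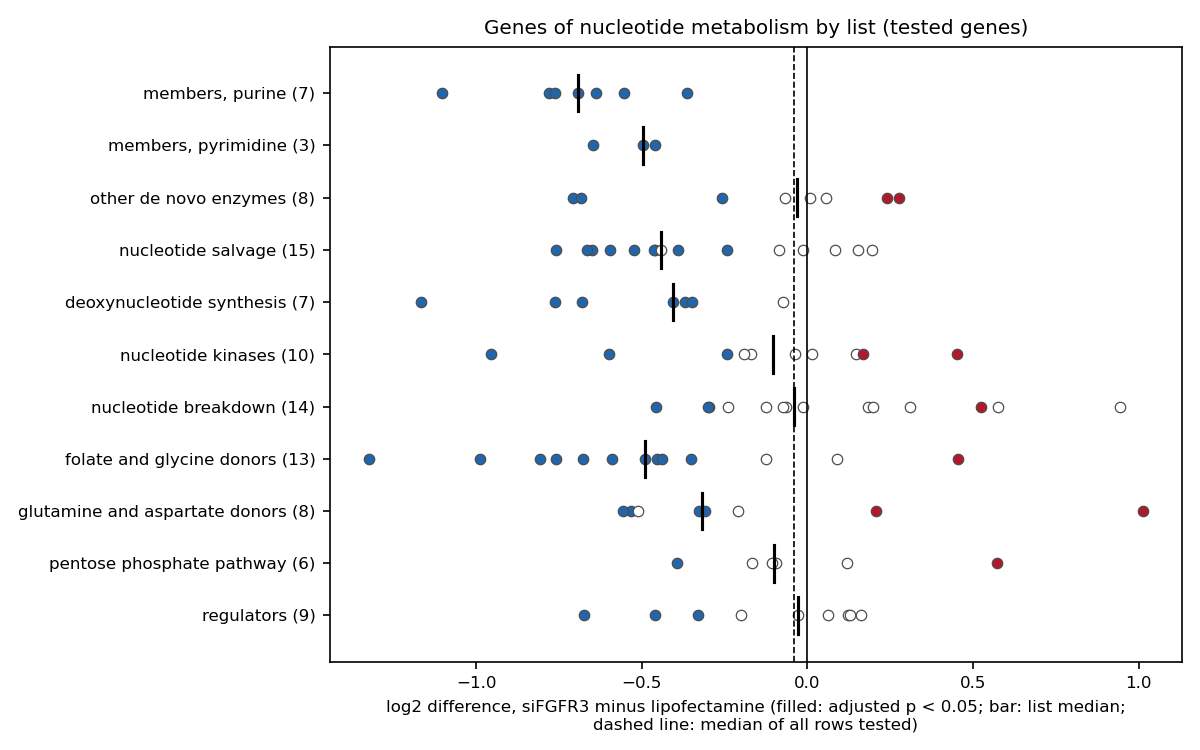
Log2 difference, siFGFR3 minus lipofectamine (horizontal axis), of each tested gene by list, with the number tested in brackets; filled points passed at an adjusted p under 0.05 (blue lower, red higher), open points did not, bars are list medians and the dashed line is the median of all rows. The purine and pyrimidine enzymes hold only blue points (medians −0.69 and −0.50). Salvage (−0.44), deoxynucleotide synthesis (−0.41) and regulators (−0.03) hold blue and open points with no red. Blue, open and red points are mixed among the other de novo enzymes (−0.03), kinases (−0.10) and breakdown enzymes (−0.04). They are also mixed among folate and glycine donors (−0.49), glutamine and aspartate donors (−0.32) and the pentose phosphate pathway (−0.10).

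On the arrays as a whole, correlations across genes were 0.9978 to 0.9984 among controls, 0.985 to 0.991 among siFGFR3 arrays and 0.961 to 0.977 between groups. The 12 urothelial and epithelial markers with a row were all above the dim-row level. The log2 of their summed linear levels, in which the brightest markers weigh most, was 14.53 to 14.58 in controls and 14.67 to 14.69 in siFGFR3 arrays. The sum does not stand for each marker: 6 of the 12 were called higher, 2 lower and 4 did not pass. Over all rows 24.6% were lower and 45.1% were called in either direction. Of other cell types 4 of 6 leukocyte, 2 of 5 fibroblast and 1 of 4 endothelial markers were above the dim-row level over the 6 arrays. The highest in each list were CD79A, COL1A1 and VWF, at 5.04, 5.42 and 4.04 in controls. The log2 of the summed linear levels of leukocyte markers was 6.95 to 7.01 in controls and 6.70 to 6.80 in siFGFR3 arrays. In the same order of groups, that of fibroblast markers was 6.38 to 6.53 and 6.60 to 6.90, and that of endothelial markers 5.54 to 5.58 and 5.40 to 5.54. The cells were an established line, so a marker above the dim-row level is not read as another cell type in the culture. Any link between these markers and the enzymes' falls was not tested.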

How the data were processed

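Per the labels' protocols, 100 ng of total RNA from each of 6 samples was amplified, labelled with biotin and measured on Affymetrix U133 Plus 2.0 arrays. The deposited values are log2 levels; RMA and affy are the tools that the submitters' processing notes name, without versions. No genome build is stated in the labels or the table. Rows are named by Entrez gene ID, so probes had been regrouped by gene. The probe annotation named 18669 of 19361 rows with 1 symbol, updated through RefSeq (GRCh38.p14), and left 692 unnamed.

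The 5809 dimmest rows (30%, mean log2 level up to 3.89) were set aside. limma 3.58.1 in R 4.3.3 (lmFit, eBayes with a variance trend) compared the groups over the 13552 rows left, with Benjamini-Hochberg adjustment over all of them. The siRNAs served as replicates of the siFGFR3 group, so the SE holds the spread between them. The 4-level model took its spread from the controls alone. No list was tested as a set. The code was tested on simulated data.

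The 10 enzymes and all lists were chosen with earlier results of these data known. Genes outside the 10 are named by a fixed rule: FGFR3, MYC, all other de novo genes, the pair with the smallest adjusted p in each list, members passing against their list's majority, the brightest marker of each other cell type, and the 5 genes nearest in pattern. Depth has no meaning for arrays, and their number limits the precision. Alternatives changed the filter, the variance model, array weights, scaling and the arrays included.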

Additional observations from a re-analysis of the deposited data

How the results depend on the processing

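Across the filter, variance, weighting, centring and leave-one-out fits and the 4-level model, whose spread comes from the controls alone, each of the 10 enzymes kept its direction, and 127 of 130 refits kept the call; the exceptions were CTPS1 without each control array, so that 9 to 10 enzymes passed as lower when 1 array was left out. Over all rows, leaving out 1 array gave 1964 to 3680 lower and 1672 to 3592 higher calls. In the contrasts between siRNAs, without a variance trend 1 enzyme was lower (4 as reported) and 0 higher (2) with siFGFR3#35, 3 were higher (5) with siFGFR3#36 and 0 lower (3) with siFGFR3#3; centring left 1 higher with siFGFR3#35. Leaving out 1 control gave 2 to 5 lower and 1 to 2 higher with siFGFR3#35, and 3 to 5 higher with siFGFR3#36. Among genes that did not pass, PRPSAP1 turned to −0.074 with array weights and −0.058 with centring, and PRPS1 to −0.010 with centring, while PRPSAP2 moved to −0.13 with centring and ran from −0.10 to −0.02 when 1 array was left out. When 1 array was left out PRPSAP1 ran from −0.054 to 0.12 and PRPS1 from −0.0030 to 0.10. The cause of these changes was not tested. No paired analysis was possible because the labels give no numbers that pair arrays across the groups. The number of arrays, 3 in each group and 1 for each siRNA, limits the precision.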
